A study of Mus musculus with 12 samples.

Results

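Sox4, Sox5, Sox6, Sox8, Sox9, Sox11, Sox12, Runx1, Runx2 and Runx3 are transcription factors of the early skeleton, and their RNA was read in the hand and foot plates (autopods) of wild-type mouse embryos at stage E12.5. The members were all probe sets that the platform annotation gave to exactly 1 of these 10 genes, a rule that reads gene names and no signal. Probe sets were found for 9 of the 10 genes, of 18193 genes named by 1 symbol on the arrays. There were 40 such probe sets, 22 on the A design and 18 on the B design of the Affymetrix MOE430 pair of GeneChips. Sox8 was on the B array alone, and Runx2 was matched to no probe set and is not analysed here.

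Total RNA of 3 forelimb samples (numbered 11, 13 and 25 in the titles) and 3 hindlimb samples (12, 14 and 26) had been hybridised to both designs, giving 12 arrays. All groups were wild type and of the same stage. The strain, the sex, and whether a sample was 1 embryo or a pool are not given in these sources, so a p-value here reflects the scatter of these samples alone, which may be technical. For forelimb 11 on the A array the limb rested on the letter in its title, and its Tbx5 signals (474 and 1145) lay near those of forelimb 13 and 25 (479 and 555, 1326 and 1381) and above the hindlimb samples (8.0 to 173.8 over both probe sets). The hindlimb identity genes Pitx1 and Tbx4 were higher in every hindlimb sample than in every forelimb sample, by log2 differences of 1.69 and 1.95 for Pitx1 and of 1.33 (A) and 1.99 (B) for Tbx4.

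Sox proteins bind DNA through an HMG box and bend it. The SoxC genes (Sox4, Sox11 and Sox12) are active in many embryonic progenitors and help mesenchymal cells survive before they commit. Sox9, of the SoxE group with Sox8, is the master factor of chondrogenesis, needed for mesenchyme to condense and form cartilage. The SoxD proteins Sox5 and Sox6 have no activation domain of their own and work with Sox9 on cartilage matrix genes. Runx proteins bind DNA through the Runt domain together with their partner Cbfb. Runx2 is the master factor of bone, Runx3 acts with it in maturing cartilage, and Runx1 is best known from blood and is also found in early skeletal progenitors.

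Promoter windows from 250 bases before to 50 bases after the start of the transcript were taken from RefSeq (build GRCm38.p6). There 9 of the 10 members had 16 windows, and Sox9 had no window and was not searched. The binding words of the 2 families were searched on both strands: ACAAAG and ACAATG for Sox, and TGTGGT and TGCGGT for Runx, along with the TATA box word TATAAA. The windows below show the member with the largest limb difference (Sox4), the window richest in words of both families (Sox6), and the upstream windows of both Runx genes that were measured. Capitals mark the words, and ACCACA is TGTGGT read on the other strand.
Sox4, chr13:28953650-28953949, minus strand: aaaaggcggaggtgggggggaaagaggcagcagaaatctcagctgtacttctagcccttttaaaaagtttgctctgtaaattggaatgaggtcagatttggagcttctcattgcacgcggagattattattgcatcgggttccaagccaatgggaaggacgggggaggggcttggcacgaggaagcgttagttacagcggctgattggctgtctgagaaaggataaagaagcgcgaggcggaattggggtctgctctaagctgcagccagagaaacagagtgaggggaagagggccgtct
Sox6, chr7:115824661-115824960, minus strand: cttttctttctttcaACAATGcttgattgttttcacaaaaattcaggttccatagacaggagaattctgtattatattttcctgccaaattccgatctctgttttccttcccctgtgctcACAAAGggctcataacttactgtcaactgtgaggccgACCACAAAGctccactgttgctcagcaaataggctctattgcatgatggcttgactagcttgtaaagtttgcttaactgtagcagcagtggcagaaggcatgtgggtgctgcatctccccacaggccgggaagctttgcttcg
Runx1, chr16:92826025-92826324, minus strand: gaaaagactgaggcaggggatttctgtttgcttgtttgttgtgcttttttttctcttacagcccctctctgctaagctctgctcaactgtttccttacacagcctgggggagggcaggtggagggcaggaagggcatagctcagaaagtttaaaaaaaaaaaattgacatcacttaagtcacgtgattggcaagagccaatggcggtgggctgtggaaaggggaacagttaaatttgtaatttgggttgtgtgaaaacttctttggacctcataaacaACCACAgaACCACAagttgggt
Runx3, chr4:135120395-135120694, plus strand: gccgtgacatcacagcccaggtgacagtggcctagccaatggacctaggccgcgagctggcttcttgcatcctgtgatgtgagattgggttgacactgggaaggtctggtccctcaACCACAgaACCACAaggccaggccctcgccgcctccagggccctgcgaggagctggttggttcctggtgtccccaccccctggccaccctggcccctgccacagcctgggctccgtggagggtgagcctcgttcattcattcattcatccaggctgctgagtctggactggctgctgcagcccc

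Of all 32851 windows of this length, 28.6% held a Sox word, 22.4% a Runx word and 13.6% the TATA word. The windows of Sox4, Sox11 and Sox12, 1 for each gene, held neither. The single Sox5 window and 5 of the 6 Sox6 windows held at least 1 Sox word, and the Sox6 window printed above held 3 together with a Runx word that overlaps one of them. Another Sox6 window held 1 Sox word and 1 Runx word. The Sox6 window without a Sox word held only the TATA word, and the Sox8 window held 1 Runx word. In the upstream windows of Runx1 and Runx3 the same word stood as a close pair, at 29 and 37 bases after the start in Runx1 and at 134 and 126 bases before it in Runx3. The Runx2 window held 4 Runx words, the most of the 16 windows, with a like pair at 24 and 32. The downstream windows of Runx1 and Runx3 held 0 Sox and 0 Runx words and were rich in CpG (35 and 45 CpG, against a median of 7 over all windows). These are matches of letters in a short window, not measured binding.

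Values are MAS5.0 signals (the Affymetrix summary of 1 probe set on a linear scale), scaled so that the 2% trimmed mean of each array is 500. Differences are given as hindlimb less forelimb after adding 32 to the signal and taking log2, so changes of dim probe sets come out too small. Each limb has n = 3, and errors are standard errors of the limma fit. Tests were adjusted by Benjamini-Hochberg over all 15338 tested probe sets of the A array or 17145 of the B array. A probe set was tested where its signal reached 100 on at least 3 of 6 arrays. This held for 34 of the 40 member probe sets, 18 of A and 16 of B. Signals of different probe sets depend on their probes and were not ranked against each other. In these bulk samples, fewer cells of a type and less RNA per cell cannot be told apart.

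None of the 34 tested member probe sets passed an adjusted p of 0.05 by limma, on an A array where 0.0326% of all tested probe sets did and a B array where 0.0117% did. At an unadjusted p under 0.05 there were 2 of 18 for A, both of Sox4, and 0 of 16 for B, where 5.54% of all tested probe sets reached it on either design. All 3 hindlimb samples lay below all 3 forelimb samples on the same 2 Sox4 probe sets of A (background 6.1%) and on 0 probe sets of B (background 6.14%). Hindlimb lay above forelimb without overlap on 0 member probe sets of either array (background 4.94% for A and 4.81% for B). Without forelimb 11 no member passed either.

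**Figure D1:**
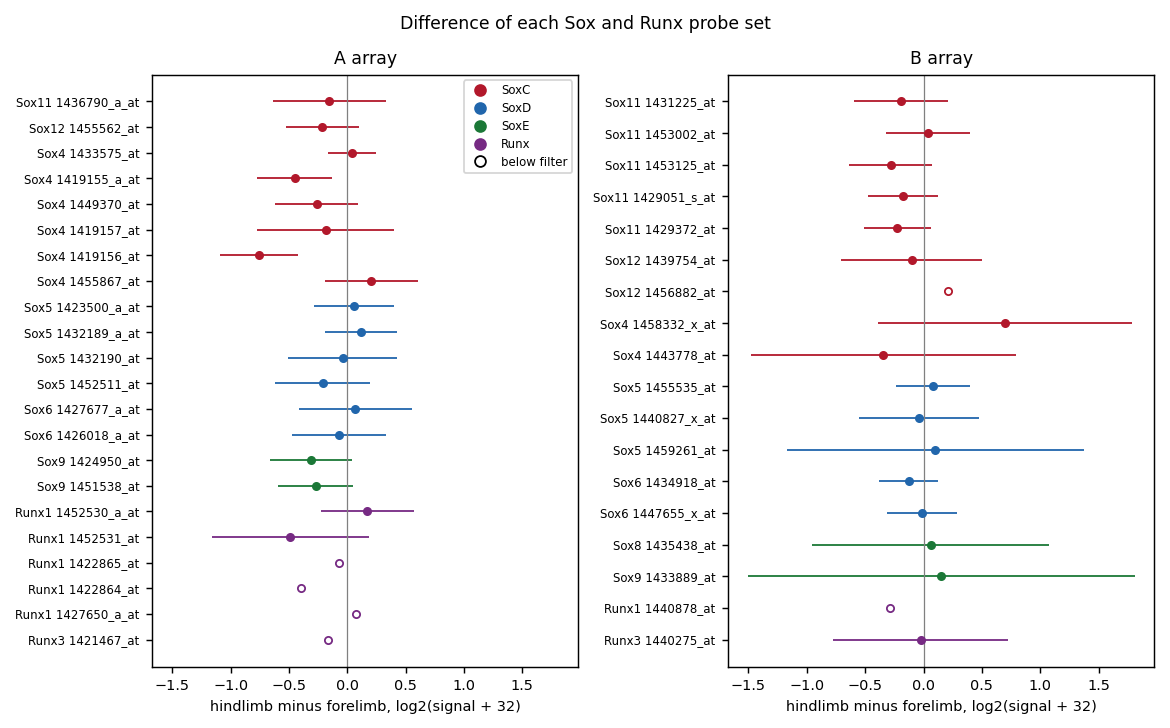
Hindlimb minus forelimb difference on the log2(signal + 32) scale (x axis) for each of the 22 member probe sets of the A array and 18 of the B array (y axis), coloured by family group. Filled points carry the 95% interval of the limma fit, and open points are the 6 probe sets below the signal filter; the intervals of 2 Sox4 probe sets on the A array lie wholly below 0, and all others cross it.

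Among the SoxC genes, Sox4 gave the largest difference of all member probe sets on the A array. On probe set 1419156_at its signals were 692, 658 and 701 in forelimb 11, 13 and 25, and 397, 319.8 and 471 in hindlimb 12, 14 and 26. Every hindlimb sample was below every forelimb sample, and the forelimb samples lay close together. The difference was -0.76 ± 0.15 (SE, n = 3 per limb, limma adjusted p = 0.223), with a 95% interval of -1.09 to -0.42, and it ranked 29 among the tested probe sets of the A array by p. With each sample left out in turn it stayed between -0.88 and -0.62.

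A second Sox4 probe set, 1419155_a_at, had 1353, 1351 and 1767 in the forelimb samples and 971, 1225 and 1041 in the hindlimb samples. The limbs did not overlap here either, with forelimb 25 highest. The difference was -0.45 ± 0.15 (limma adjusted p = 0.647). The brightest Sox4 probe set, 1433575_at, had 5518, 5141 and 5786 in forelimb and 5513, 6059.7 and 5377 in hindlimb. There the limbs overlapped, although hindlimb 14 was highest and forelimb 13 lowest, with a difference of 0.04 ± 0.09 and an interval of -0.16 to 0.25 that holds no change as large as on the first probe set; its sign turned to -0.004 with quantile normalization. The remaining Sox4 probe sets of the A array had differences of -0.26, -0.18 and 0.21, each with overlapping limbs. On 1419157_at hindlimb 14 stood highest of all samples at 1385, while hindlimb 12 and 26 (684 and 632) were lowest.

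Probe sets of Sox4 thus gave different answers within the same arrays. The log2 ratio of 1419156_at to the brightest probe set averaged -2.95 ± 0.04 in the forelimb samples and -3.74 ± 0.35 in the hindlimb samples (SD, n = 3 each). The ratio of 1419155_a_at to it was -1.87 ± 0.16 and -2.36 ± 0.10. Both ratios parted the limbs at p = 0.1 (exact permutation, two-sided), which is as low as a design of 3 and 3 can go. The other 3 ratios overlapped (exact p of 0.4 to 0.5). Adjusted over the 5 pairs by Benjamini-Hochberg, the lowest exact p was 0.25. These pairs were compared after the values had been seen. With each sample left out, the first ratio difference (-0.80) ranged from -0.96 to -0.61 and the second (-0.49) from -0.56 to -0.41. Both Sox4 probe sets of the B array were dim, with signals of 51.4 to 182.8 and 58.6 to 392, and their differences of -0.35 ± 0.51 and 0.70 ± 0.49 went opposite ways with overlapping limbs.

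**Figure D2:**
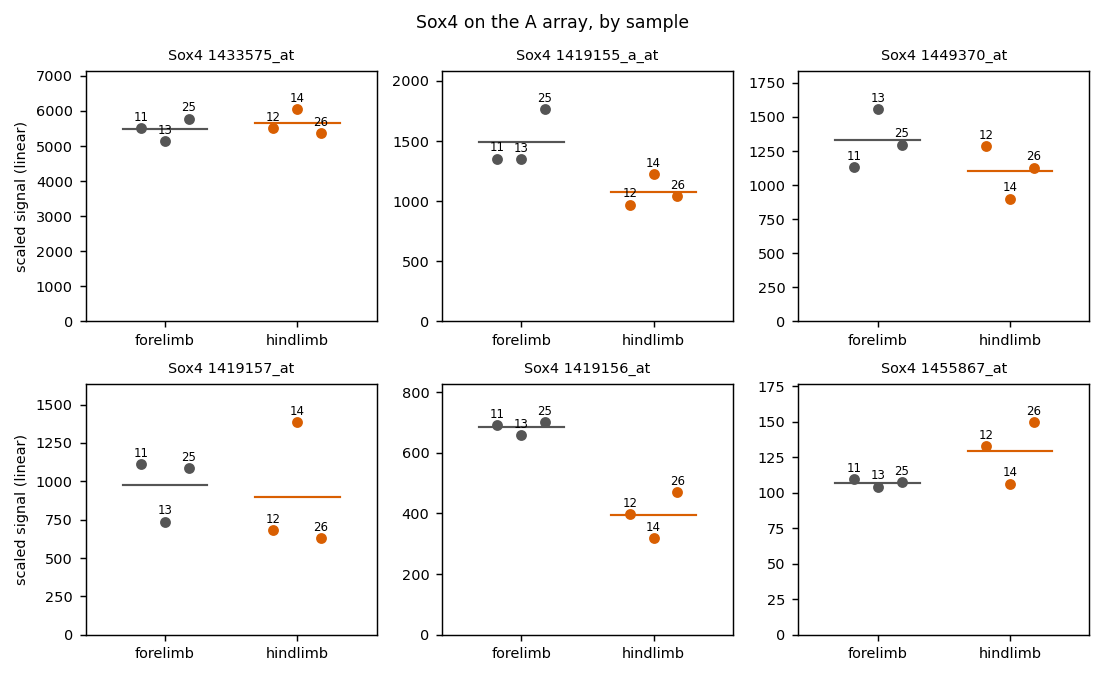
Scaled signal (linear y axis from 0) of the 6 Sox4 probe sets of the A array in the 3 forelimb and 3 hindlimb samples, each point labelled with its sample number and each line the mean of the limb. On 1419156_at and 1419155_a_at all hindlimb points lie below all forelimb points, and on the brightest, 1433575_at, the limbs overlap.

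Sox11, a close relative of Sox4 with overlapping roles, was carried by 1 A array and 5 B array probe sets. On the A array its signals were 1543, 1617 and 2406 in forelimb and 1889, 1151 and 1996 in hindlimb. Forelimb 25 was highest, hindlimb 14 lowest, and the limbs overlapped (difference -0.15 ± 0.22, limma adjusted p = 0.988). Among its B array probe sets 4 of 5 had negative differences, from -0.28 ± 0.16 to -0.18 ± 0.14, and 1453002_at had 0.04 ± 0.16. The limbs overlapped on all 5.

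The brightest Sox11 probe set of the B array had 23401, 19416 and 20025 in forelimb and 19484, 23128 and 13453 in hindlimb. Hindlimb 26 alone was low there, and its difference of -0.19 ± 0.18 became 0.02 without that sample. On 1453125_at the low sample was instead hindlimb 14, at 6029.9 against 8872 and 9438 in hindlimb 12 and 26 and 9142 to 10116 in forelimb. The Sox11 probe sets therefore did not single out the same hindlimb sample.

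Sox12, the third SoxC gene and the one with the mildest known role, read 895, 1051 and 1189 in the forelimb samples of the A array and 802, 972 and 905 in its hindlimb samples. Only hindlimb 12 lay below all forelimb samples, and the difference was -0.21 ± 0.14 (limma adjusted p = 0.955). The brighter B array probe set of Sox12 had 558.5, 1341 and 1239 in forelimb and 866, 998 and 869.9 in hindlimb. Forelimb 11 was lowest there, and the difference of -0.10 ± 0.27 turned to 0.12 and 0.07 without forelimb 13 and 25. The other Sox12 probe set was below the filter, with signals of 22.1 to 79.3.

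In the SoxE group, Sox9 was lower on average in hindlimb by both of its A array probe sets, with similar sizes and no call. On 1424950_at Sox9 had 1046, 1140 and 1147 in forelimb and 769, 788 and 1149 in hindlimb. Hindlimb 12 and 14 were below the forelimb samples, and hindlimb 26 stood above all of them. The difference was -0.31 ± 0.16 (limma adjusted p = 0.94), with a 95% interval of -0.67 to 0.04. It was -0.50 without hindlimb 26, -0.215 without hindlimb 12 and -0.23 without hindlimb 14. On 1451538_at Sox9 had 756, 964 and 853 in forelimb and 601, 781 and 737 in hindlimb. Here hindlimb 12 was lowest, forelimb 11 lay between hindlimb 26 and 14, and the difference was -0.27 ± 0.15 (limma adjusted p = 0.94).

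The probe set of Sox9 on the B array was dim and scattered, with 74.3, 174 and 9.3 in forelimb and 12.1, 171 and 106 in hindlimb. Its interval of -1.51 to 1.81 holds both the differences of the A array and changes in the other direction. Sox8, which shares some functions with Sox9 and is dispensable where Sox9 is present, had 154, 42.9 and 149 in forelimb and 125, 90.0 and 118 in hindlimb. The limbs overlapped, and the difference was 0.06 ± 0.46. Its interval of -0.96 to 1.08 holds changes of either sign up to those sizes.

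**Figure D3:**
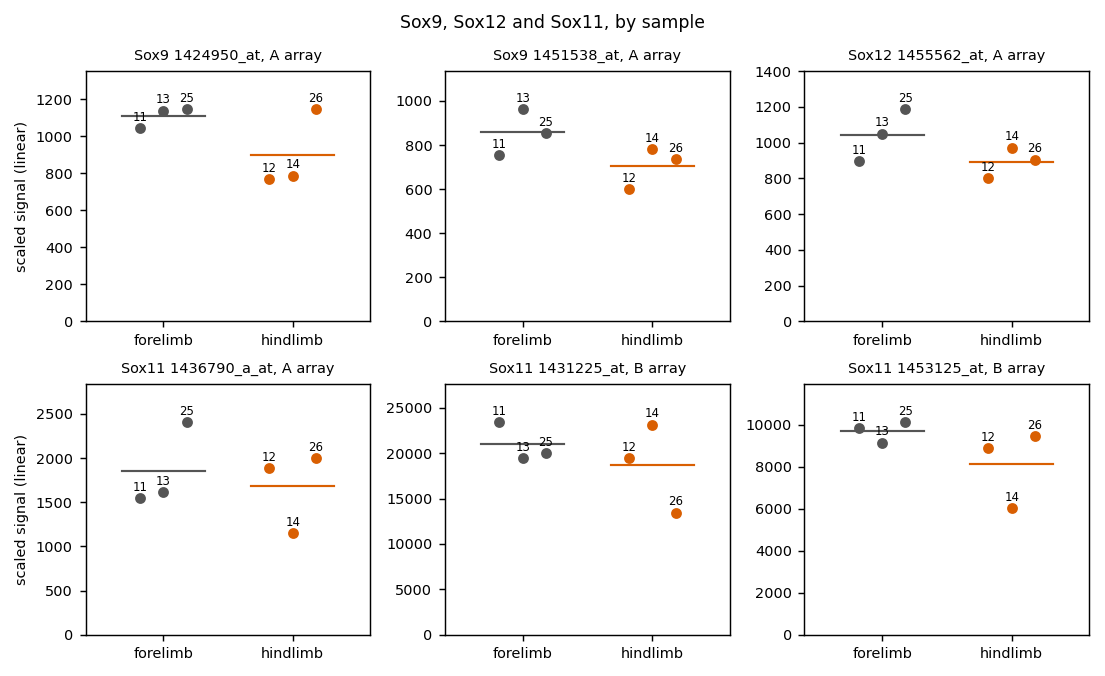
Scaled signal (linear y axis from 0) of both Sox9 probe sets and Sox12 on the A array and of 1 A array and 2 B array probe sets of Sox11 in each sample, labelled with the sample number, with a line at the mean of each limb. The limbs overlap in each panel. Hindlimb means lie below forelimb means in the panels shown, whereas they lie above on Sox11 1453002_at and on Sox9 of the B array, which are not drawn.

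The probe sets nearest to the first Sox9 probe set in their profile over the 6 arrays of the A design, by root mean square distance of centred log2 values, belonged to Fto (0.040), Kdelr1 (0.072), Hk2 (0.072), Msi2 (0.080) and Gli1 (0.081). Gli1, a transcription factor and target of hedgehog signalling, had a difference of -0.22 ± 0.19. For Sox11 on the A array they belonged to Slc31a2 (0.096), Cfc1 (0.098), Cyb5r3 (0.116), Zbed3 (0.120) and Mapk14 (0.124). Candidates were tested probe sets of other genes with 1 symbol, whose own profile had an SD at least that of the member. These were the nearest of 3285 and 1243 such probe sets over 6 arrays, given as a description alone. For the B design, the nearest of 4965 candidates to the brightest Sox11 probe set was Psg21 (0.057), followed by Lsm11, Azin2, Rsl1 and C2cd5. The nearest of only 76 candidates to the dim Sox9 probe set was 9630015K15Rik (0.536), followed by Mboat1, Rassf6, Marchf1 and 4933439C10Rik.

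The SoxD genes lay near 0 on both designs. Sox5 had differences of 0.12, 0.06, -0.04 and -0.21 over its 4 probe sets of the A array and 0.10, 0.08 and -0.04 over 3 on the B array. On its brightest A probe set Sox5 had 541, 434 and 439.9 in forelimb and 571, 413 and 498 in hindlimb. Hindlimb 12 was highest and hindlimb 14 lowest, so the limb spanned the whole range of the forelimb (difference 0.06 ± 0.16, 95% interval -0.29 to 0.40). The brightest Sox5 probe set of the B array had 0.08 ± 0.14 and an interval of -0.24 to 0.40.

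Sox6 had 568, 832 and 556 in forelimb and 917, 498 and 666 in hindlimb by its brighter A probe set. Forelimb 13 and hindlimb 12 were high, and the difference of 0.07 ± 0.22 turned to -0.15 without hindlimb 12. The other Sox6 probe set of the A array gave -0.07 ± 0.18. The brighter B array probe set of Sox6 had 2698, 2949.6 and 2848 in forelimb and 2762, 2486 and 2525 in hindlimb. Hindlimb 12 lay within the forelimb samples, and the difference was -0.13 ± 0.11 (interval -0.38 to 0.12). This and the brightest Sox4 probe set of the A array had narrow intervals, which hold no change past 0.38 in size; the second B probe set of Sox6 gave -0.01 ± 0.13.

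Of the Runx genes, Runx1 was measured above the filter by 2 of its 5 A array probe sets and by 0 of 1 on B. On 1452530_a_at Runx1 had 201, 152 and 138 in forelimb and 186, 216 and 161 in hindlimb. Its second probe set, 1452531_at, had 99.0, 178 and 214 in forelimb and 136, 54.1 and 137 in hindlimb. The limbs overlapped on both, and the differences went opposite ways (0.17 ± 0.18 and -0.49 ± 0.31, limma adjusted p = 0.976 and 0.955). The probe sets below the filter had signals of 4.1 to 104.7 (A) and 15.0 to 51.4 (B).

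Runx3 was below the filter on the A array, at 26.3, 23.4 and 23.1 in forelimb and 20.6, 16.3 and 18.1 in hindlimb. The hindlimb values were all lower, at a difference of -0.16 with no test. The B array probe set of Runx3 had 229, 239 and 109 in forelimb and 154, 233 and 160.0 in hindlimb. Forelimb 25 was lowest, the limbs overlapped, and the difference was -0.03 ± 0.34 (interval -0.78 to 0.73). Signals of the A and B probe sets of Runx3 cannot be compared with each other.

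Set against each other over all their probe sets, without a filter and without a test, the groups had these median differences on the A array: -0.20 for SoxC (8 probe sets, 6 negative), 0.01 for SoxD (6 probe sets, 3 negative), -0.29 for SoxE (both Sox9 probe sets negative) and -0.12 for Runx (6 probe sets, 4 negative). Over all 22626 probe sets of the A array the median was -0.01, with quartiles of -0.14 and 0.10, and 53.3% were negative. The B array medians were -0.18 for SoxC (9 probe sets, 6 negative), -0.01 for SoxD (5 probe sets, 3 negative), 0.11 for SoxE (2 probe sets, 0 negative) and -0.16 for Runx (2 probe sets, both negative). Over all 22511 probe sets of that array the median was -0.02, with quartiles of -0.21 and 0.15. The B array SoxE median turned to -0.10, -0.07 and -0.004 without forelimb 25, hindlimb 14 and hindlimb 26. It rests on the dim probe sets of Sox8 and Sox9 described above, and 4 of the 6 Runx probe sets of the A array are below the filter. Probe sets of 1 gene are not separate members: Sox4 had 6 of the 8 SoxC probe sets of A, and Runx1 5 of its 6 Runx probe sets. Sox11 had 5 of the 9 SoxC probe sets of B. With the brightest probe set of each gene, the SoxC median was -0.15 (A) and -0.10 (B). On A the SD of the medians between samples within a limb was 0.125 (SoxC), 0.072 (SoxD), 0.170 (SoxE) and 0.100 (Runx). On B it was 0.181 (SoxC), 0.098 (SoxD), 0.436 (SoxE) and 0.290 (Runx). No median difference of a group on B was larger in size than this SD.

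**Figure D4:**
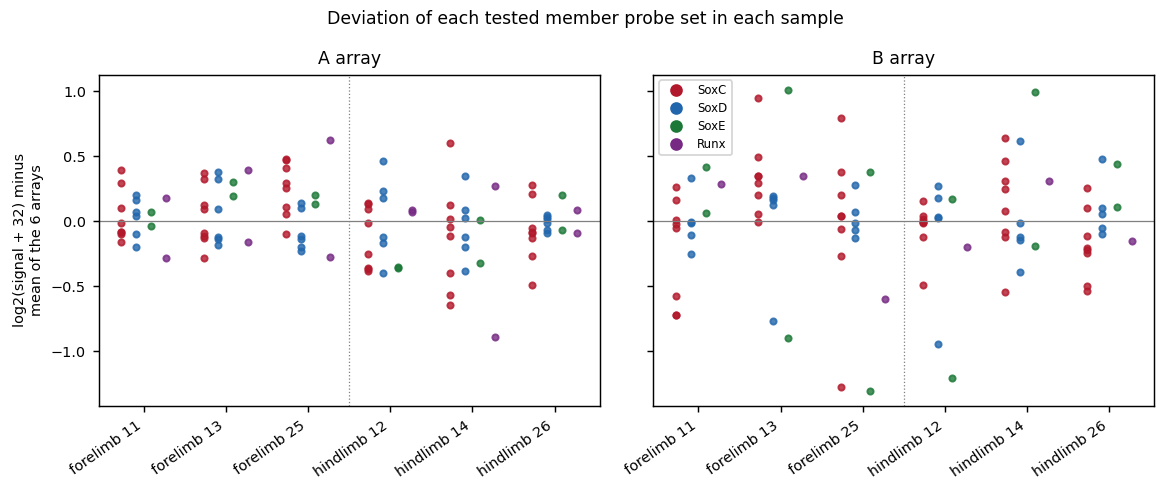
Log2(signal + 32) of each tested member probe set minus its mean over the 6 arrays (y axis) in each sample (x axis), for the A and the B array, coloured by family group. On the A array the median deviation of the SoxE probe sets runs from -0.35 in hindlimb 12 to 0.25 in forelimb 13, and on the B array the SoxE points scatter widely in both limbs.

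Other genes around these factors were described by lists, which were chosen with earlier results of these data known. Cbfb, the partner of all Runx proteins, had signals of 4094 to 4499 in all A arrays and a difference of -0.01 ± 0.09. Of 12 measured genes of Runx partners and corepressors on the A array, 0 probe sets passed, and those of smallest p were Tle2, a Groucho corepressor (-0.34 ± 0.17, limma adjusted p = 0.94), and Cbfa2t3 (-0.33 ± 0.16, adjusted p = 0.91). The limbs did not overlap on either. Over the 23 probe sets of this list on A the median was -0.09, and 18 were negative (53.3% over the whole array). On B the median was -0.03 over 11 probe sets, 6 of them negative. Of the other Sox genes, 6 were measured above the filter on the A array and none passed. Sox13, the third SoxD gene, had 0.24 ± 0.18 and Sox3 -0.29 ± 0.22, both with overlapping limbs. For the B array, the smallest p in these lists belonged to Tle3 (-0.31 ± 0.20) and Runx1t1 (0.22 ± 0.16), and to Sox7 (0.61 ± 0.48) and Sox21 (-0.19 ± 0.25).

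Cartilage matrix genes, known targets of Sox9, Sox5 and Sox6, had a median difference of -0.33 over 21 probe sets on the A array, where 17 were negative. None of the 17 tested probe sets, of 13 genes, passed (0.0326% of all tested probe sets did). At an unadjusted p under 0.05 by limma 9 were lower, where 3.69% of all tested probe sets of the A array were. Matn4, a matrilin, had 654, 616 and 492 in forelimb and 318, 367 and 289 in hindlimb (-0.79 ± 0.15, adjusted p = 0.193). Acan, the cartilage proteoglycan core, had 229, 255 and 258 in forelimb and 151, 114 and 151 in hindlimb (-0.72 ± 0.16, adjusted p = 0.376). The limbs did not overlap on either. The B array tested 4 probe sets of this list, with Col27a1, a fibrillar collagen, at -0.32 ± 0.12 and -0.34 ± 0.16. Over all 6 probe sets of the list on the B array, 4 were negative and the median was -0.17. By the brightest probe set of each tested gene, the A array median was -0.43, with 11 of 13 genes negative. The same measure on the B array gave 0.16, with 1 of 3 genes negative.

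Bone and hypertrophic cartilage genes had a median of 0.01 over 17 probe sets of the A array, and of -0.43 over the brightest probe set of each of the 6 genes that passed the filter. Of 8 tested probe sets, 6 were lower in hindlimb at an unadjusted p under 0.05 (background 3.69%) and 0 passed the threshold. Both probe sets of smallest p belonged to Col1a1, the main collagen of bone and of other connective tissue, at -0.83 ± 0.15 and -0.87 ± 0.19 (limma adjusted p = 0.183 and 0.332). Condensation and progenitor genes had a median of -0.14 over 31 probe sets, 25 negative, with Foxc1 at -0.56 ± 0.13 and Tnc, the matrix glycoprotein tenascin C, at -0.98 ± 0.25. Signals known to act on Sox9 and Runx2 had a median of -0.06 over 39 probe sets. Gdf5, a growth factor of joints, had -0.60 ± 0.15 and Bmp7 -0.56 ± 0.15, and on the B array Bmp5 had 0.53 ± 0.16 with all hindlimb samples above all forelimb samples. The other B array probe sets of smallest p in these lists were Gli3 (-0.28 ± 0.12), Tnc (-1.07 ± 0.41), Prrx1 (-0.84 ± 0.60) and Col1a2 (0.57 ± 0.21). Hindlimb samples all lay below all forelimb samples on the probe sets given for Col1a1, Foxc1, Gdf5 and Bmp7. The same held for Tnc on both arrays and for Gli3, whereas the limbs overlapped on Prrx1 and Col1a2. Over these 6 lists 0 of 113 tested probe sets passed on the A array, where 24 had an unadjusted p under 0.05, and 0 of 38 for B, where 4 did. The share over all tested probe sets was 5.54% on either design. The members and these lists share the same 6 samples.

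Markers of other tissues in the autopod moved with the limbs in part. The summed signal of 8 surface ectoderm markers on the A array spanned 4055 to 5184 in forelimb and 3354 to 3944 in hindlimb, without overlap. Only 4 of the 8 genes were negative and their median was 0.000: the keratins Krt15 (-1.38), Krt14 (-0.83 on its brightest probe set) and Krt5 (-0.40) had negative differences, whereas Krt8 (0.28), Krt18 (0.30) and Trp63 (0.09) had positive differences. The summed signal of 5 measured erythroid markers was 28561 to 31189 in forelimb and 32050 to 35505 in hindlimb, without overlap. By the brightest probe set of each gene 0 were negative, and the limbs were apart on Hbb-y (0.18) alone. Its other probe sets, of like brightness, had overlapping limbs (0.06 and -0.05), as did Hba-x (0.075). Muscle (4 measured of 8; 1108 to 1523 and 854 to 1141), endothelium (6 of 7; 2125 to 2238 and 1920 to 2152) and macrophage markers (5 of 8; 1419 to 1532 and 1466 to 1535) overlapped. By the brightest probe set of each gene, 4 of 4 muscle, 4 of 6 endothelium and 1 of 5 macrophage genes were negative. Their median differences were -0.25, -0.07 and 0.065. Schwann and nerve markers (3 of 8) had 1112 to 1198 and 798 to 1087, without overlap. Of these 3 genes the limbs were apart on Ngfr (-0.72) and overlapped on Sox10 (0.004) and Erbb3 (-0.12), and Foxd3, S100b and Tubb3 were below the filter. The 6 autopod mesenchyme markers were all measured (11292 to 12314 in forelimb, 9989 to 12482 in hindlimb). Their brightest probe sets were negative for 5 of the 6 genes (median -0.10). On the B array 0 of 3 measured genes were negative (median 0.07). As a sign of RNA quality, the A array log2 ratio of the 3' over the 5' Gapdh control probe set averaged -0.18 ± 0.09 in the forelimb samples and -0.28 ± 0.02 in the hindlimb samples (SD, n = 3 each; exact permutation p = 0.1, two-sided). All 3 hindlimb ratios lay below all 3 forelimb ratios, and no lower exact p is possible with 3 and 3 samples. The Gapdh difference of -0.096 was -0.044 without forelimb 13. Beta-actin on the same arrays differed the other way, by 0.071 (exact permutation p = 0.3, two-sided). The part of these values in the Sox4 and Sox9 differences was not tested.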

How the data were processed

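Expression was measured in autopods of 3 forelimb and 3 hindlimb samples on 2 array designs. The authors deposited linear intensities, MAS5.0 signals per probe set, per the labels; the label of forelimb 11 on the A array names no method. Symbols came from the platform annotation, updated through gene identifiers with a RefSeq table (GRCm38.p6); 20393 of 22690 probe sets on the A array and 14674 of 22575 on the B array had 1 symbol. Each array was scaled to a 2% trimmed mean of 500, and log2(signal + 32) was fitted in R 4.3.3 with limma 3.58.1: lmFit, then eBayes allowing a mean-variance trend. P-values were two-sided and adjusted by Benjamini-Hochberg within a design (threshold 0.05), over probe sets with a signal of at least 100 on 3 of 6 arrays. Control probe sets were left out. Precision is limited by how many arrays there are, with a median standard error of 0.16 for A and 0.23 for B. Single values were compared by exact permutation tests. Figures used matplotlib 3.10.9.

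The members and lists were chosen with earlier results of these data known. Every member was named; from each list, at most 4 probe sets that passed, and where none passed, the 2 with the lowest p; and the 5 nearest profiles of Sox9 and Sox11. Other settings tried were: each sample left out; a pseudocount of 1 or 100; the signal filter dropped or raised to 200; array weights; unscaled values; quantile normalization; eBayes without the trend; the brightest probe set of each gene; consecutive sample numbers as a block; adjustment across both designs. Leaving samples out of the Sox4 ratios was chosen after seeing the data. The fit was tested on simulated arrays with known changes at the same threshold. It recovered 18% of 1.5-fold and 76% of 2-fold changes on the A array, and 4% and 32% on the B array. The simulation gave 151 calls on A and 86 on B, against 5 and 2 in the data. The adjusted threshold is stricter where fewer probe sets change, so recovery in the data was likely lower than these shares.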

Additional observations from a re-analysis of the deposited data

How the results depend on the processing

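The count of member probe sets past the threshold stayed at 0 on both arrays under all 17 alternatives. The lowest adjusted p of any member was 0.138, for Sox4 on 1419156_at with the replicate block of consecutive sample numbers; the labels give no number shared between limbs. Of 34 tested member probe sets, 17 kept their sign in all alternatives where they were tested, among them both Sox9 and both separating Sox4 probe sets of the A array. Under quantile normalization the sign turned for Sox4 1433575_at (-0.004), Sox5 1432190_at (0.020), Runx3 on the B array (0.031), Sox11 1453002_at (-0.038) and Sox5 1440827_x_at (0.012). With array weights it turned for Sox6 1426018_a_at (0.012) and Runx3 (0.045). Ranges with 1 sample left out that crossed 0 were Sox11 1436790_a_at (-0.295 to 0.093), Sox4 1433575_at (-0.008 to 0.083), Sox4 1419157_at (-0.530 to 0.017), Sox5 1423500_a_at (-0.046 to 0.173), Sox5 1432190_at (-0.224 to 0.151), Sox6 1427677_a_at (-0.146 to 0.274), Sox6 1426018_a_at (-0.187 to 0.014), Runx3 1440275_at (-0.329 to 0.141), Sox11 1431225_at (-0.366 to 0.024), Sox11 1453002_at (-0.105 to 0.170), Sox12 1439754_at (-0.488 to 0.120), Sox5 1455535_at (-0.026 to 0.198), Sox5 1440827_x_at (-0.187 to 0.144), Sox5 1459261_at (-0.255 to 0.601), Sox6 1447655_x_at (-0.106 to 0.065), Sox8 1435438_at (-0.371 to 0.287), Sox9 1433889_at (-0.461 to 0.794). Among group medians, SoxE on the B array ranged from -0.097 to 0.392 with 1 sample left out, Runx on the A array moved to -0.241 with a pseudocount of 1 and to 0.005 with the brightest probe set of each gene, where SoxD was at 0.063. Of the related lists, Col1a1 passed with array weights, so their A array count rose from 0 to 1. On the B array the Gapdh ratio difference ranged from -0.020 to 0.070 and that of beta-actin from -0.038 to 0.018 with 1 sample left out. Dim signals limit the B array probe sets of Sox4, Sox8, Sox9 and Runx3.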
